A study of Mus musculus with 8 samples.

Results

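The 10 genes described here are typical of T cells and natural killer (NK) cells: Cd3d, Cd3e and Cd3g of the T cell receptor complex, the NK cell receptor genes Klrd1 and Ncr1, the cytokine receptor gene Il2rb, the granzyme genes Gzma and Gzmb, the chemokine gene Ccl5 and the granule gene Nkg7. They were found by gene symbol among the 52550 genes listed for each library, and all 10 were present. The genes were chosen by their FPKM in lactoferrin-deficient (Lf-/-) against wild type pro-B libraries, seen in earlier work on these files, so the difference between genotypes is given for each of them as a description, with no p. The libraries were made from total RNA of early B cell fractions sorted from the bone marrow of untreated C57BL/6J mice kept under specific-pathogen-free conditions. Wild type (WT) littermates were set against Lf-/- mice, in which the lactoferrin gene (Ltf) was knocked out. Pre-pro-B cells were sorted on markers that included the presence of AA4.1 and B220 and the absence of CD24, and pro-B cells as positive for B220 and CD43 and negative for IgM. Pre-pro-B cells gave 2 libraries from WT and 2 from Lf-/- mice, and pro-B cells gave 1 from WT and 2 from Lf-/- mice. The other WT pro-B library was not analysed here. The age of the mice is not given in the sources used here. The labels give the Lf-/- libraries of both stages the names KO1 and KO2, with mouse in the singular. They do not state that libraries with the same replicate number came from the same mouse, so the spread between libraries may be partly technical.

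Mature T cells recognise antigen through a receptor whose alpha and beta chains bind antigen, while the CD3 chains carry the signal into the cell through kinases such as Lck and Zap70. NK cells carry no such receptor. They weigh activating receptors, among them NKp46 (Ncr1), against inhibitory ones, among them CD94 (Klrd1) paired with an NKG2 chain, and they depend on interleukin 15 received through a receptor that contains the beta chain Il2rb. Both cell types kill by releasing granzymes and perforin from granules. B220, the antigen used in both sorts, is also found on some cells outside the B lineage, and neither sort as described excluded cells by CD3 or by an NK cell marker.

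Values are FPKM, which scale the fragments of a gene by transcript length and by the mapped fragments of the library, so levels can be compared between genes per unit length. Ltf itself did not go against any label. It was 2143 and 2731 FPKM for WT at the pre-pro-B stage and 2650 FPKM at the pro-B stage, and for Lf-/- it was 88.2 and 149 FPKM at the earlier stage and 168 and 96.0 FPKM at the later one. Neutrophil transcripts were abundant in every library: 10 neutrophil granule markers made up between 23.8% and 51.3% of all FPKM. The 10 early B lineage markers were detected at lower levels, summing to 223 FPKM in the WT pro-B library, where Rag1 was listed at 0, and to between 553 and 3533 FPKM in the other 6. The WT pro-B library thus held the fewest B lineage transcripts of the 7, against its label. Lf-/- pre-pro-B replicate 2 stood apart. It listed 12172 genes above 0 where the other libraries listed 19477 to 20250, and 64 of 3478 genes that had at least 5 FPKM in each of the other 6 libraries were listed at 0 in it. A value of 0 in that library is therefore given as listed, not as absence of the transcript. In the other 6 libraries the spacing of low values corresponded to about 11200000 to 15800000 fragments. In such bulk samples fewer cells of a type and less RNA per cell cannot be told apart.

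The 3 CD3 genes lie side by side on mouse chromosome 9 (GRCm38) within 40056 bases: Cd3g at chr9:44969572-44980431 on the minus strand, Cd3d at chr9:44981786-44987339 on the plus strand and Cd3e at chr9:44998740-45009627 on the minus strand. Cd3g and Cd3d are transcribed away from each other from start sites 1355 bases apart. The other 7 genes lie on chromosomes 6, 7, 11, 13, 14 and 15, and only Nkg7 and Ncr1 share a chromosome, chromosome 7. RefSeq promoters (GRCm38.p6) were found for 7 of the 10 genes, all but Klrd1, Ccl5 and Il2rb. The letters searched were chosen after these promoters had been read. The core motif of RUNX factors (TGTGGT, or ACCACA on the other strand), which act in T and NK cells, occurred in the 250 bases upstream of the start site in 4 of these genes, and 14% of 32817 promoters held it. The E-box letters CACCTG occurred in 3 (17.2% of all promoters), the ETS core AGGAAG in 3 (29.5%) and the T-box letters AGGTGTGA in 1, Nkg7 (1.12%). The RefSeq start site matched no GENCODE transcript start for Cd3e, Nkg7 and Gzmb. For Nkg7 it was 43437138, inside the GENCODE gene, which starts at 43437073. The T-box and ETS letters of Nkg7, 14 and 34 bases before its RefSeq start, thus lay within that gene. The 250 bases upstream of the RefSeq start site are shown for the 4 genes with the RUNX core, which is in capitals. They include Ncr1 and Gzma, the members with the largest differences in pro-B libraries, and Nkg7, the member below WT in pro-B on average.
Ncr1, chr7:4337474-4337723, plus strand: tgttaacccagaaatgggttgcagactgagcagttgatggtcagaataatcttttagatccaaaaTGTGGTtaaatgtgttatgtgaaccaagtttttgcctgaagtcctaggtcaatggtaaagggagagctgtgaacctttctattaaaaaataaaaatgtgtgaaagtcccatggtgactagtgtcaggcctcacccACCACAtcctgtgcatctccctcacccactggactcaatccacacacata
Gzma, chr13:113100982-113101231, minus strand: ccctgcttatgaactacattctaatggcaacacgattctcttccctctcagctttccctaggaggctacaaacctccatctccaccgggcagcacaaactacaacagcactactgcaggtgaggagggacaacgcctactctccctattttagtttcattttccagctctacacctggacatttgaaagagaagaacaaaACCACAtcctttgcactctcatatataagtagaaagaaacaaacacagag
Gzmb, chr14:56262335-56262584, minus strand: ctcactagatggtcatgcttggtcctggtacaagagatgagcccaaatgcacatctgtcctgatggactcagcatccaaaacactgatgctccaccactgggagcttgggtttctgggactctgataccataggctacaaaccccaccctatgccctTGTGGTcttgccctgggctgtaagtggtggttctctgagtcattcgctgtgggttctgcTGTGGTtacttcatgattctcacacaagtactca
Nkg7, chr7:43436888-43437137, plus strand: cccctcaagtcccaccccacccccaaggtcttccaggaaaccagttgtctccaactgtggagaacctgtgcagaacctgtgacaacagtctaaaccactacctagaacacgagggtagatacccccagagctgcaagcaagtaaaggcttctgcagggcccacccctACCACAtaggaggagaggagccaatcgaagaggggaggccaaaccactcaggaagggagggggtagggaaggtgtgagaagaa
Ncr1 and Gzmb held the core 2 times in these windows, and Gzma and Nkg7 held it 1 time. A match of 6 letters is a description of the sequence and does not show that a factor binds there.

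The CD3 genes were low in all WT libraries and higher in both Lf-/- pro-B libraries. Cd3e, the signalling chain found in every CD3 dimer, was 0.254 FPKM in WT pro-B, against 2.52 and 1.59 FPKM in Lf-/- pro-B, about 5 fragments against about 42 and 37. In WT pre-pro-B it was 0.180 and 0.346 FPKM and in Lf-/- pre-pro-B 0.244 and 0.562 FPKM, so that the Lf-/- pro-B libraries were above the other 5. Cd3g, which pairs with Cd3e, was likewise above the other 5 libraries in both Lf-/- pro-B replicates. It was 1.93 FPKM in WT pro-B and 6.65 and 5.71 FPKM in Lf-/- pro-B (mean 6.18 ± 0.666, SD, n = 2), a mean 3.19-fold above WT. In WT pre-pro-B Cd3g was 1.33 and 0.886 FPKM, and in Lf-/- pre-pro-B it was 0.801 FPKM in replicate 1, while replicate 2 listed it at 0. Cd3d, the other chain that pairs with Cd3e, was less orderly. It was 13.2 FPKM in WT pro-B and 17.1 and 42.1 FPKM in Lf-/- pro-B, but 14.3 and 3.89 FPKM in WT pre-pro-B, and 2.71 and 41.5 FPKM in Lf-/- pre-pro-B. Replicates of Cd3d thus differed within each group that had 2 libraries by more than WT and Lf-/- replicate 1 differed in pro-B. The chains did not keep a fixed ratio. Cd3d was between 6.79 and 79.4 times Cd3e in FPKM over the 6 libraries in which all 3 genes were above 0, and Cd3g was between 2.56 and 7.63 times Cd3e.

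**Figure D1:**
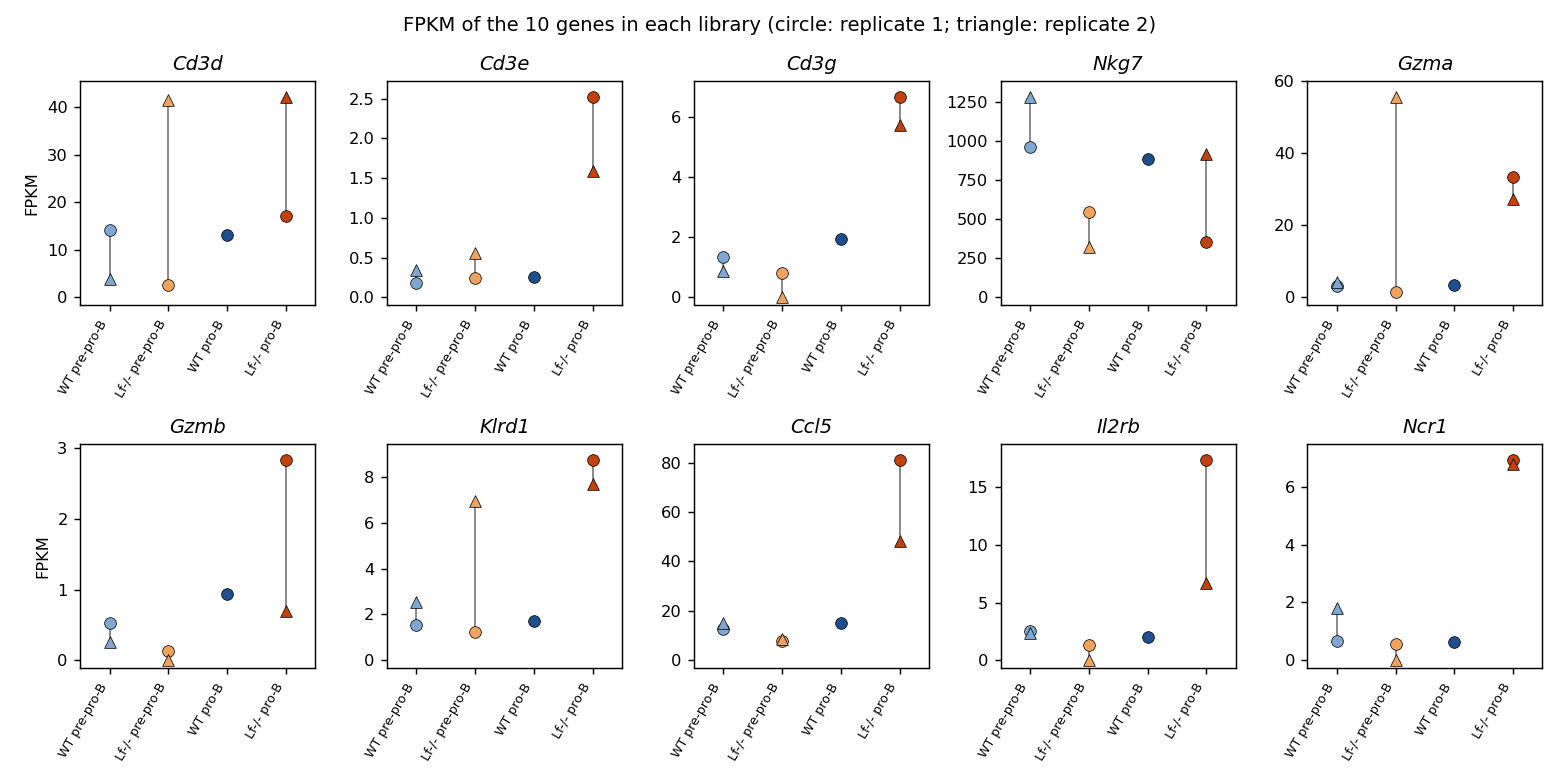
FPKM of each of the 10 genes (1 panel each, linear axis from 0) in the 4 groups; each point is a library, circles are replicate 1, triangles replicate 2, and grey lines join the replicates of a group. Both Lf-/- pro-B points lie above the WT pro-B point for 8 genes, while Nkg7 and Gzmb overlap, and the Lf-/- pre-pro-B points lie far apart for Cd3d, Gzma and Klrd1.

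Ncr1, which encodes the activating NK receptor NKp46, was 0.632 FPKM in WT pro-B and 6.93 and 6.78 FPKM in Lf-/- pro-B, 11.0 and 10.7 times the WT value and about 117 and 160 fragments against about 14. In pre-pro-B it was 0.655 and 1.81 FPKM in WT and 0.563 FPKM in Lf-/- replicate 1, and it was listed at 0 in replicate 2. The Lf-/- pro-B replicates agreed closely (mean 6.86 ± 0.105 FPKM, SD, n = 2), and both stood above all other libraries. Il2rb, the receptor chain shared by interleukin 2 and interleukin 15, was 2.05 FPKM in WT pro-B and 17.4 and 6.67 FPKM in Lf-/- pro-B. It was 2.49 and 2.35 FPKM in WT pre-pro-B, 1.35 FPKM in Lf-/- pre-pro-B replicate 1 and listed at 0 in replicate 2. The Lf-/- pro-B replicates were 8.48 and 3.25 times the WT library, so the direction was shared and the size was not. Klrd1, the CD94 chain of NK receptors, was 1.69 FPKM in WT pro-B and 8.75 and 7.69 FPKM in Lf-/- pro-B (mean 8.22 ± 0.753, SD, n = 2). In pre-pro-B it was 1.55 and 2.55 FPKM in WT and 1.23 and 6.94 FPKM in Lf-/-, one replicate below and the other above both WT libraries.

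Among the secreted effectors, Gzma had the largest pro-B difference on the log2 scale. This gene for granzyme A, a granule protease, was 3.56 FPKM in WT pro-B and 33.4 and 27.2 FPKM in Lf-/- pro-B, 9.39 and 7.64 times WT. It was 3.10 and 4.16 FPKM in WT pre-pro-B and 1.60 and 55.6 FPKM in Lf-/- pre-pro-B, so Lf-/- pre-pro-B replicate 2 held the highest Gzma value of the 7 libraries. Ccl5, a chemokine made by activated T and NK cells, was 15.0 FPKM in WT pro-B and 81.2 and 48.3 FPKM in Lf-/- pro-B. In pre-pro-B it was 12.6 and 15.0 FPKM in WT and 7.89 and 8.71 FPKM in Lf-/-. Lf-/- was thus below WT in pre-pro-B and above it in pro-B with no overlap at either stage, and no Ccl5 value was listed at 0. Gzmb, the gene for granzyme B, was near the limit of detection. It was 0.936 FPKM in WT pro-B and 2.84 and 0.702 FPKM in Lf-/- pro-B, with the WT value between the replicates, and no pre-pro-B library exceeded 0.528 FPKM. Gzmb did not reach 1 FPKM in at least 2 libraries and so was left out of every count over all genes tested.

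Nkg7, whose product sits in the membrane of cytotoxic granules, was the most abundant of the 10 genes in every library. It was 885 FPKM in WT pro-B and 357 and 919 FPKM in Lf-/- pro-B, and 965 and 1283 FPKM in WT pre-pro-B against 544 and 324 FPKM in Lf-/- pre-pro-B. Lf-/- was thus below WT in pre-pro-B and on both sides of it in pro-B, an order that Gzmb shared at far lower levels. Nkg7 made up between 66.9% and 97.6% of the summed FPKM of the 10 genes, so that sum follows Nkg7 and is not used below. Pearson's r between a member and the mean profile of the other 8 members tested, over 7 libraries and given as a description, was -0.27 for Nkg7 and ran from 0.45 (Cd3d) to 0.96 (Ccl5) for the other 8, and Gzmb was not among the members tested. Elane, the neutrophil elastase gene, chosen among 10 neutrophil markers because its order was like that of Nkg7, was at 18996 FPKM in WT pro-B and 2673 and 10234 FPKM in Lf-/- pro-B, with Lf-/- replicate 1 lowest as for Nkg7. Elane was at 13713 and 16864 FPKM in WT pre-pro-B and 10370 and 4272 FPKM in Lf-/- pre-pro-B, the same order of the 4 libraries as for Nkg7. Mpo had that order too, at 2778 and 5176 FPKM in WT and 2543 and 1260 FPKM in Lf-/- pre-pro-B. In pro-B Mpo was 3157 FPKM in WT and 835 and 1818 FPKM in Lf-/-, with replicate 1 lowest. Elane and Mpo were below WT in both Lf-/- pro-B libraries, while Nkg7 was above WT in Lf-/- replicate 2. Of the 10 neutrophil markers 5 (Mpo, Elane, Prtn3, Ctsg and Lcn2) were below WT in both Lf-/- pre-pro-B libraries, beside 17.7% of all genes tested. Ngp, Camp and S100a8 did not share the order and were higher in Lf-/- pre-pro-B replicate 1 than in either WT pre-pro-B library. Mmp8 was above WT in both Lf-/- pro-B libraries. The part of the neutrophil transcripts in the Nkg7 values was not tested.

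In pro-B libraries 7 of the 10 genes were at least 2-fold higher in Lf-/- with both replicates above WT on the log2(FPKM + 1) scale, where 12.4% of 10793 genes tested were. Those genes were Cd3e, Cd3g, Gzma, Klrd1, Ccl5, Il2rb and Ncr1, and their log2 differences ran from 1.27 (Cd3e) to 2.77 (Gzma). Cd3e reached 1 FPKM in the Lf-/- pro-B libraries alone. It passed the filter through the group in which it was high, so its direction adds no support. Cd3d, at 0.98, was above WT in both replicates without reaching 2-fold, so that 8 of 10 genes did not overlap, beside 75.3% of all genes tested. No gene was below WT in both replicates, where 6.9% of genes were. Most genes in these libraries were higher in Lf-/- pro-B, with a median log2 difference of 0.48 over the 10793 genes, and the member differences stand on top of that shift. After each library was divided by its median ratio to the others, the median of all genes was 0.01. The log2 differences were then 2.22 for Gzma, 1.90 for Ncr1, 1.46 for Il2rb, 1.37 for Ccl5, 1.30 for Klrd1, 1.03 for Cd3e, 0.81 for Cd3g, 0.36 for Cd3d and 0.05 for Gzmb. Nkg7 went from -0.63 to -1.27 with that scaling and was then below WT in both replicates, while 6 members were at least 2-fold higher, beside 4% of all genes. These values were not tested, because they come from the contrast that chose the genes and because there was 1 WT library.

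**Figure D2:**
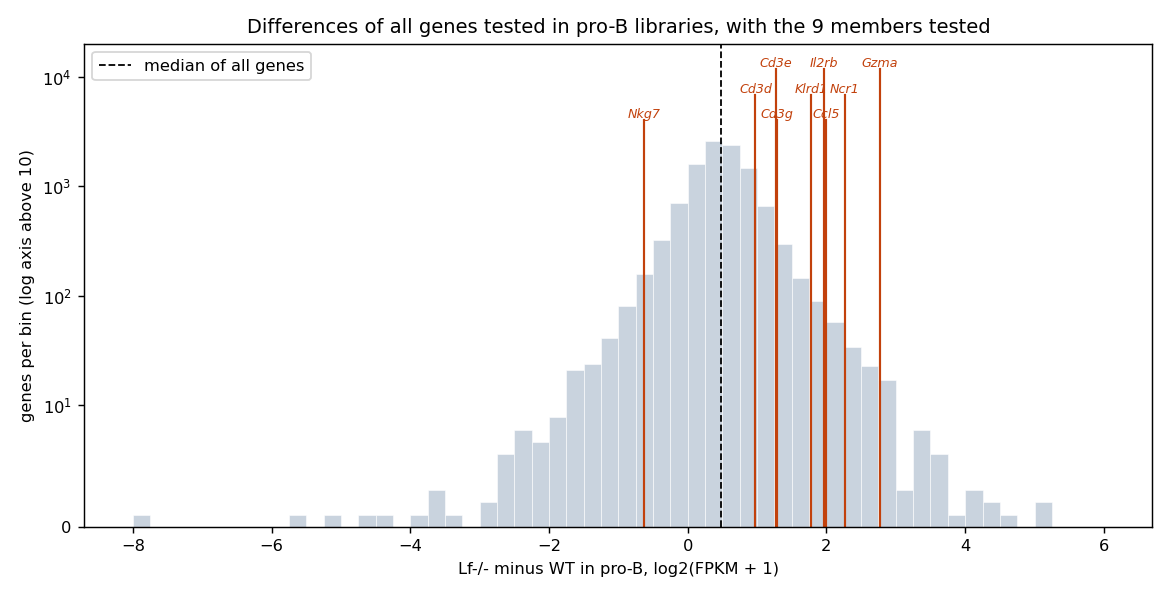
Histogram of the Lf-/- minus WT difference in pro-B libraries, log2(FPKM + 1), for all 10793 genes tested (bars, 0.25 log2 wide, count axis logarithmic above 10 genes), with the median of all genes dashed at 0.48 and the 9 members tested as orange lines. Nkg7 lies below 0 at -0.63 and the other 8 lie above the median, from 0.98 to 2.77.

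In pre-pro-B libraries the picture was split by replicate. Lf-/- replicate 1 was below both WT libraries for 9 of the 10 genes, all but Cd3e, at 0.298 (Cd3d) to 0.721 (Cd3g) times the WT mean. Lf-/- replicate 2 was above both WT libraries for 4 genes, Cd3d, Cd3e, Gzma and Klrd1, and was listed at 0 for 4 others, Cd3g, Gzmb, Il2rb and Ncr1. As a result 6 genes were below WT in both replicates (Cd3g, Nkg7, Gzmb, Ccl5, Il2rb and Ncr1), where 17.7% of 9720 genes tested were, and 4 overlapped. None was above WT in both replicates, where 15.5% of genes were. Cd3g, Gzmb, Il2rb and Ncr1 were among the 6 with a value listed at 0 in the library that listed the fewest genes, and 3 of the 6 members that passed the filter at this stage were below WT in both replicates. Log2 differences of the 10 genes, averaged over replicates, ran from -1.40 (Nkg7) to 1.40 (Gzma). Limma called 0 of the 9720 genes at an adjusted p under 0.05 between genotypes in pre-pro-B, and 284 had an unadjusted p under 0.05.

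**Figure D3:**
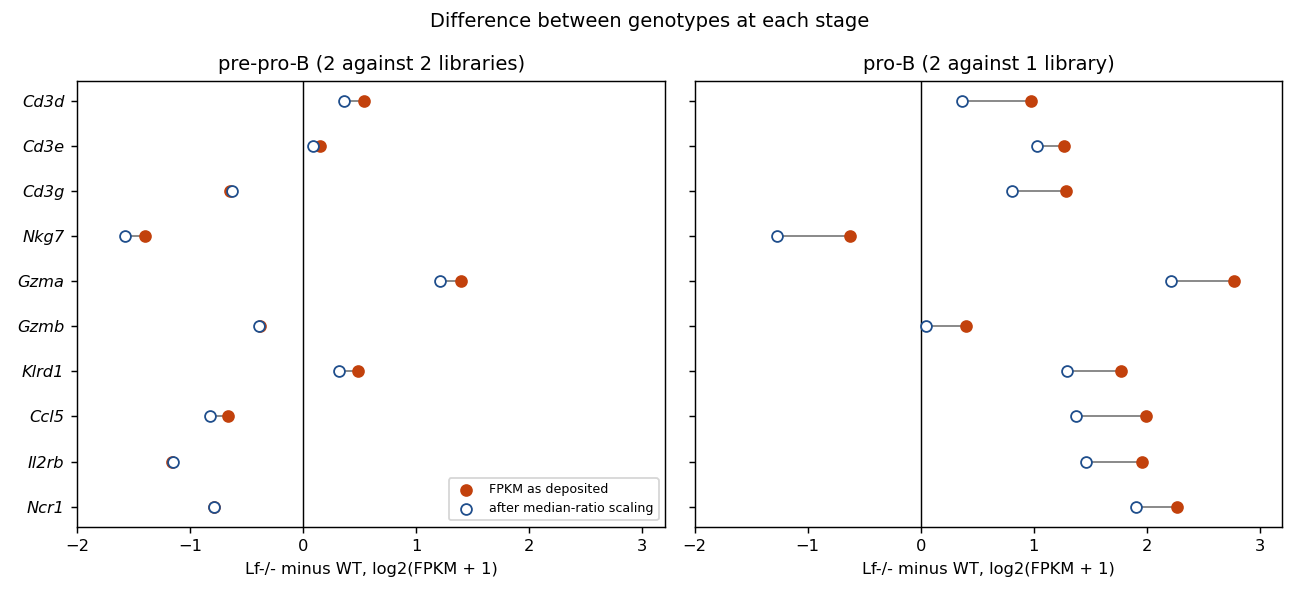
Lf-/- minus WT difference of each gene in log2(FPKM + 1), in pre-pro-B (left, 2 against 2 libraries) and pro-B (right, 2 against 1), from FPKM as deposited (filled) and after median-ratio scaling (open). In pro-B the scaling moved every gene to lower values, from 0.98 to 0.36 for Cd3d and from 2.77 to 2.22 for Gzma, and left Nkg7 as the gene below 0.

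The step from pre-pro-B to pro-B within Lf-/- mice is a contrast that did not choose the genes, although it shares the Lf-/- pro-B libraries with the one that did. Of the 10 genes, 7 were higher in both pro-B than in both pre-pro-B libraries, where 26.2% of 10311 genes tested were: Cd3e, Cd3g, Gzmb, Klrd1, Ccl5, Il2rb and Ncr1. The other 3 overlapped, and no gene was lower in both pro-B libraries, where 4.86% of genes were. No member passed limma with Benjamini-Hochberg adjustment, which called 0 of the 10311 genes (351 had an unadjusted p under 0.05), and 4 of the 9 members tested had an unadjusted p under 0.05. With the replicate number added to the fit as a block, limma called 84 genes and 3 members, Ccl5, Il2rb and Ncr1. Whether that number pairs the libraries is not known. The p-values of the members are not independent of the choice of genes, because the libraries that chose these genes form the upper arm. Among the Lf-/- libraries, Cd3e, Cd3g and Ncr1 reached 1 FPKM in the pro-B ones alone. They thus passed the filter through the arm in which they were high, so their direction here adds no support. The log2 difference was 2.78 (SE 0.49, limma adjusted p = 0.528) for Ccl5, 2.65 (SE 0.52, limma adjusted p = 0.652) for Ncr1, 2.42 (SE 0.55, limma adjusted p = 0.786) for Cd3g and 2.95 (SE 0.69, limma adjusted p = 0.850) for Il2rb. Ccl5 alone of these rests on no value listed at 0. When replicate 2 of Lf-/- pre-pro-B was left out the difference was 2.84 for Ccl5, 2.33 for Ncr1, 1.99 for Cd3g and 2.34 for Il2rb. Cd3d and Gzma overlapped between the stages. Gzma was 1.36 higher in pro-B with both pre-pro-B libraries, 3.59 higher without replicate 2 and 0.86 lower without replicate 1 on the log2 scale, so its direction rested on 1 library. The same held for Cd3d, at 1.15 with all libraries, 2.91 without replicate 2 and -0.61 without replicate 1.

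In WT mice the 10 genes, in FPKM as deposited, differed by less than 2-fold between the stages on the log2(FPKM + 1) scale. With 1 WT pro-B library there was no test. None of the 9 members tested was 2-fold apart beyond the range of the pre-pro-B libraries, where 0.797% of 10793 genes were higher in pro-B and 3.28% were lower. The WT pro-B value lay within the range of the WT pre-pro-B libraries for 5 genes, Cd3d, Cd3e, Gzma, Klrd1 and Ccl5, and for 26.1% of all genes. Log2 differences, pro-B minus pre-pro-B, ran from -0.40 (Ncr1) to 0.72 (Cd3d), beside a median of -0.28 over all genes. After median-ratio scaling they ran from -0.24 (Ncr1) to 1.10 (Cd3d, then above both pre-pro-B libraries), and the signs of Cd3e, Nkg7, Gzma, Klrd1 and Il2rb turned from negative to positive. As deposited, 1 of the 9 members tested lay above both WT pre-pro-B libraries and 3 lay below. After the scaling 5 lay above and 0 below, beside 3478 and 3634 of the 10793 genes.

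The related genes of the T cell receptor and its signalling pathway were compared in the same way, and counts are set beside the share of all 10793 genes tested. Those shares cover genes that passed the filter, while counts of genes above or below WT take every gene of a list. The gene sets are thus unlike. With no filter, 12378 of 27443 genes were above WT in both Lf-/- pro-B replicates. These related lists were drawn up with earlier results of the data known. Of 20 genes, 16 were above WT in both Lf-/- pro-B replicates, beside 75.3% of all genes, and 4 overlapped. At least 2-fold higher were 8 of the 11 that passed the filter, beside 12.4%. Of the 11, Zap70 reached 1 FPKM in the Lf-/- pro-B libraries alone and passed the filter through them, so its direction adds no support. After median-ratio scaling 14 were above, beside 36.6%, and 6 were at least 2-fold higher, beside 4% of all genes. The constant regions of the receptor chains were among the genes above WT. Trbc2 was 6.55 FPKM in WT pro-B and 38.0 and 31.2 FPKM in Lf-/- pro-B, and Trbc1 was 4.41 FPKM against 23.2 and 17.7 FPKM. The variable segments of the beta chain, 35 genes in the file, summed to 7.95 FPKM in WT pro-B and to 23.3 and 17.1 FPKM in Lf-/- pro-B, with 15, 18 and 17 segments above 0. The 128 variable segments of the alpha chain summed to 3.71 FPKM in WT pro-B and to 15.2 and 9.86 FPKM in Lf-/- pro-B. Lck, the kinase that starts receptor signalling, was 2.21 FPKM in WT pro-B and 13.7 and 9.15 FPKM in Lf-/- pro-B, and Cd2, an adhesion receptor of T and NK cells, was 7.89 FPKM against 41.9 and 34.6 FPKM. Both Lck and Cd2 were also high in an Lf-/- pre-pro-B library, Lck at 34.4 FPKM in replicate 2 and Cd2 at 60.4 FPKM in replicate 1. In Lf-/- pre-pro-B replicate 2, Trac, Trbc1 and Trbc2 were listed at 0 while Cd3d was 41.5 FPKM and Cd8b1, a chain of the CD8 coreceptor, was 13.1 FPKM.

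Of 20 NK receptors and cytotoxic effectors, 17 were above WT in both Lf-/- pro-B replicates, beside 75.3% of all genes, and 3 overlapped. At least 2-fold higher were 9 of the 12 that passed the filter, beside 12.4%. Of the 12, Klrb1c, Fasl, Ifng and Prf1 reached 1 FPKM in the Lf-/- pro-B libraries alone. They passed the filter through the group in which they were high, so their direction adds no support. After median-ratio scaling 16 were above, beside 36.6%, 1 was below and 8 were at least 2-fold higher, beside 4%. Klrb1c, the NK1.1 receptor gene in this strain, was 0.367 FPKM in WT pro-B and 7.46 and 2.38 FPKM in Lf-/- pro-B. Klra4, an NK receptor of the Ly49 family, was 0.648 FPKM against 6.24 and 3.11 FPKM, and Fasl, the death ligand of killer cells, was 0.442 FPKM against 7.44 and 2.28 FPKM. Ctsw, a protease of cytotoxic cells, was 5.07 FPKM against 23.1 and 22.2 FPKM, and the chemokine gene Xcl1 was 5.45 FPKM against 21.0 and 16.6 FPKM. All 5 were listed at 0 in Lf-/- pre-pro-B replicate 2, as were 16 of the 20 genes. Ccl4, a chemokine shared with myeloid cells, was high in all libraries, at 89.3 FPKM in WT pro-B and 316 and 188 FPKM in Lf-/- pro-B. Cst7, an inhibitor of cysteine proteases, was 143 FPKM in WT pro-B and 71.8 and 193 FPKM in Lf-/- pro-B, on both sides of WT as Nkg7 was.

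**Figure D4:**
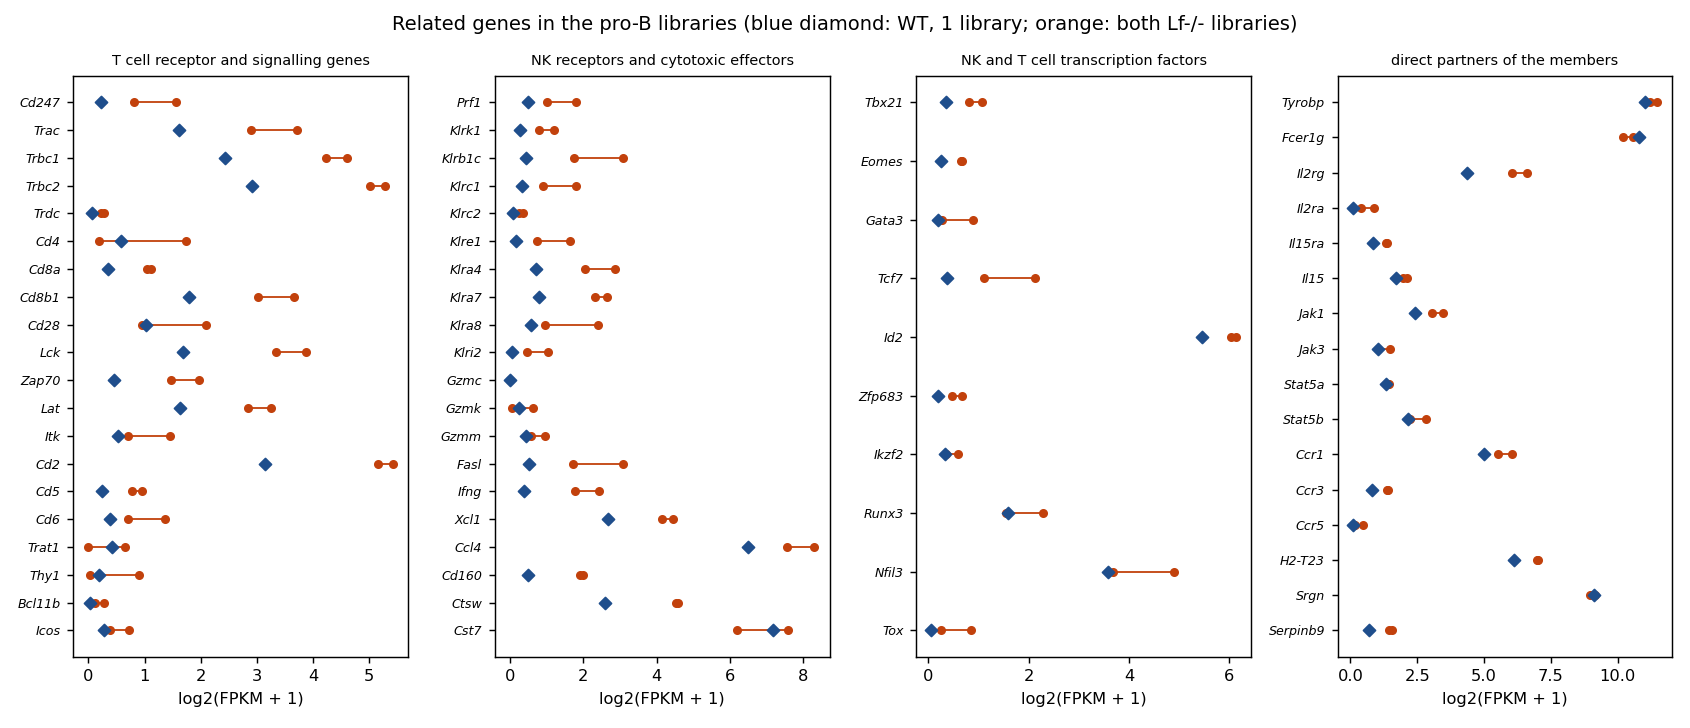
Log2(FPKM + 1) in the pro-B libraries for the 66 related genes in 4 lists, with the WT library as a blue diamond and the 2 Lf-/- libraries as joined orange points. Both Lf-/- points lie to the right of WT for 16 of 20 T cell receptor and signalling genes, 17 of 20 NK genes, 9 of 10 transcription factors and 13 of 16 partners.

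Transcription factors of NK and T cells were low apart from Id2 and Nfil3. Of 10 genes, 9 were above WT in both Lf-/- pro-B replicates (75.3% of all genes were), against 6 after median-ratio scaling (36.6% of all genes), and 1 of the 4 that passed the filter was at least 2-fold higher. That gene was Tcf7, a factor of early T and innate lymphoid development, at 0.291 FPKM in WT pro-B and 3.36 and 1.16 FPKM in Lf-/- pro-B. Tcf7 reached 1 FPKM in the Lf-/- pro-B libraries alone and passed the filter through them, so its direction adds no support. Tbx21 and Eomes, the T-box factors of NK cells, reached 1.10 and 0.584 FPKM at most. Id2, an inhibitor of E proteins, was 42.8 FPKM against 69.0 and 64.6 FPKM, a log2 difference of 0.63 beside the median of 0.48 for all genes. Runx3, a RUNX factor of cytotoxic cells, was 2.02 FPKM in WT pro-B and 3.85 and 1.91 FPKM in Lf-/- pro-B, with the WT value between the replicates. Nfil3, a factor needed early in NK development, was 10.9 FPKM in WT pro-B and 28.7 and 11.8 FPKM in Lf-/- pro-B.

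The direct partners of the 10 genes are adaptors, shared receptor chains, ligands and the like. Of 16 genes, 13 were above WT in both Lf-/- pro-B replicates, a share near the 75.3% of all genes, 1 was below and 2 overlapped, with a median log2 difference of 0.43 for the 14 that passed the filter. After median-ratio scaling 8 were above and 5 below, beside 36.6% and 33% of all genes, with a median of 0.01. Il2rg, the common gamma chain that joins Il2rb in the receptors for interleukins 2 and 15, was the partner that was at least 2-fold higher, at 19.5 FPKM in WT pro-B and 96.6 and 64.6 FPKM in Lf-/- pro-B. It is also used by interleukin 7 in B cell precursors. Tyrobp and Fcer1g, adaptors of activating NK receptors that myeloid cells also use, were at 2065 and 1770 FPKM in WT pro-B and at 2366 and 2853 FPKM for Tyrobp and 1529 and 1166 FPKM for Fcer1g in Lf-/- pro-B. Fcer1g was thus the partner below WT in both replicates. Jak1, a kinase on these receptors, was 4.38 FPKM in WT pro-B and 10.1 and 7.23 FPKM in Lf-/- pro-B. H2-T23, which encodes Qa-1, the ligand of CD94 paired with NKG2A, was 67.7 FPKM in WT pro-B and 126 and 130 FPKM in Lf-/- pro-B. Serpinb9, a granzyme B inhibitor, was 0.600 FPKM against 1.95 and 1.75 FPKM, and Srgn, the granule proteoglycan serglycin, was 550 FPKM against 497 and 565 FPKM.

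Over the 4 related lists, 30 of 66 genes stood in both Lf-/- pro-B libraries above the other 5 libraries, as did 6 of the 10 members (Cd3e, Cd3g, Klrd1, Ccl5, Il2rb and Ncr1) and 13.5% of all 10793 genes. Between the stages in Lf-/- mice limma called 0 of the 41 related genes that passed the filter. Of these, 13 had an unadjusted p under 0.05, beside 351 of all 10311 genes tested. The upper arm again holds the libraries that chose the members. Some of the 13, among them Klrb1c, Klra4, Fasl and Tcf7, reached 1 FPKM among the Lf-/- libraries in pro-B alone. They passed the filter through that arm, so their direction here adds no support. The log2 difference was 4.30 (SE 0.67, limma adjusted p = 0.502) for Trbc2 and 3.44 (SE 0.73, limma adjusted p = 0.718) for Trbc1, both listed at 0 in Lf-/- pre-pro-B replicate 2.

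Markers of some other cells were also higher in Lf-/- pro-B, where 75.3% of all genes tested were above WT in both replicates and 6.9% were below. In pre-pro-B the counts of the early B lineage markers differed from those of the members. There 8 of the 10 early B lineage markers were above WT in both replicates (15.5% of genes tested), while 6 of the 10 members were below (17.7%). Among those 6, Cd3g, Gzmb, Il2rb and Ncr1 were listed at 0 in Lf-/- pre-pro-B replicate 2. That replicate was above both WT libraries for 4 other members. Without Nkg7 the members summed to 39.2 FPKM in WT pro-B and to 177 and 147 FPKM in Lf-/- pro-B. The 6 basophil and mast cell markers, all above WT in both replicates, summed to 502 FPKM in WT pro-B and to 3082 and 2242 FPKM in Lf-/- pro-B, and to 476 to 597 FPKM in WT and 203 to 262 FPKM in Lf-/- pre-pro-B. Ms4a2 was the marker of that list at 0, in Lf-/- pre-pro-B replicate 2. The 8 plasmacytoid dendritic cell markers, cells that carry B220, were all above WT and summed to 74.5 FPKM in WT pro-B and to 209 and 288 FPKM in Lf-/- pro-B, and to 54.1 to 57.1 FPKM in WT and 58.8 to 237 FPKM in Lf-/- pre-pro-B. The 10 early B lineage markers were all above WT in Lf-/- pro-B, at 223 FPKM against 2760 and 1583 FPKM, and summed to 553 to 609 FPKM in WT and 2386 to 3533 FPKM in Lf-/- pre-pro-B. The neutrophil granule markers went the other way, 9 of 10 below WT and Mmp8 above, with 51.3% of all FPKM in the WT pro-B library against 32.5% and 38.0% in the Lf-/- ones. Of 8 monocyte and macrophage markers 6 were above, as were 75.3% of all genes, and 1 was below, summing to 1043 FPKM in WT pro-B and to 619 and 792 FPKM in Lf-/- pro-B. Of 8 erythroid markers 3 were above and 5 overlapped, with sums of 41395 FPKM in WT pro-B and 75729 and 38201 FPKM in Lf-/- pro-B. After median-ratio scaling 36.6% of all genes were above WT in both replicates and 33% were below. Above WT were then 5 of 6 basophil and mast cell, 7 of 8 plasmacytoid dendritic cell and 10 of 10 early B lineage markers. The same held for 1 of 8 monocyte and macrophage and 1 of 8 erythroid markers, and 9 of 10 neutrophil markers were below. The part of any of these cells in the T and NK cell values was not tested.

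**Figure D5:**
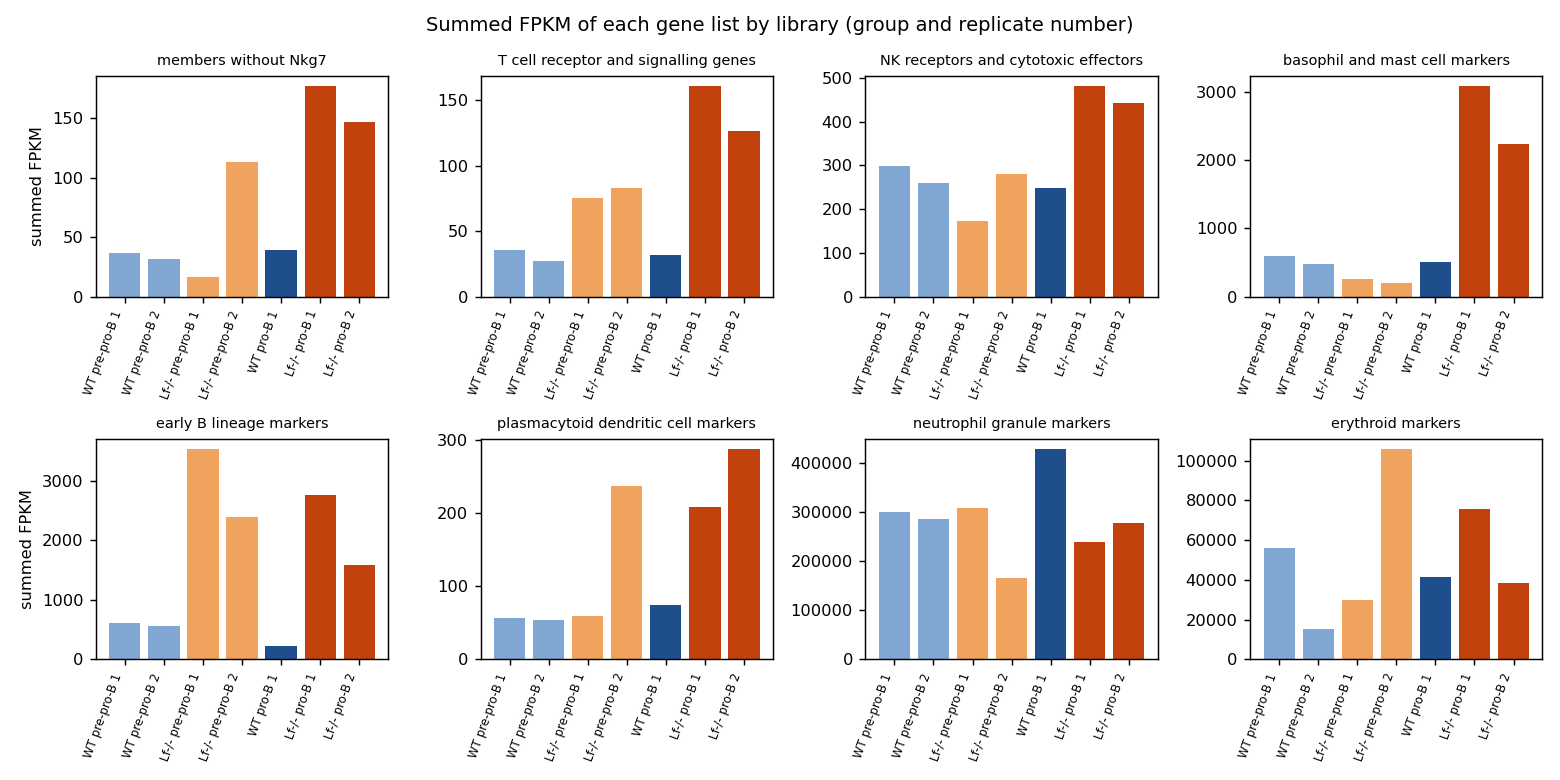
Summed FPKM (bars from 0, a scale for each panel) of 8 gene lists in each of the 7 libraries, coloured by group. The members without Nkg7 stand at 39.2 FPKM in WT pro-B and at 177 and 147 in Lf-/- pro-B beside the basophil and mast cell markers (502 against 3082 and 2242), while the neutrophil granule markers are lower in Lf-/- pro-B than in WT pro-B.

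The genes outside the list whose profile over the 7 libraries was most like the mean profile of the members were led by Fcer1a, the alpha chain of the high-affinity IgE receptor of basophils and mast cells, with Pearson's r of 0.98. Fcer1a was at 14.6 FPKM in WT pro-B and 73.0 and 79.2 FPKM in Lf-/- pro-B. Cpa3, the mast cell carboxypeptidase gene, had an r of 0.97, at 8.19 FPKM in WT pro-B and 50.7 and 42.3 FPKM in Lf-/- pro-B. The other 8 of the 10 closest genes were Mir6949, Slc7a11, Gm20429, Clec2i, Vill, Gm37988, Gm25544 and G0s2, with r of at least 0.96. Of these, Mir6949, Gm20429, Clec2i, Gm37988 and Gm25544 reached 1 FPKM in the Lf-/- pro-B libraries alone, at 1.02 to 2.58 FPKM. They passed the filter through the group in which they were high, so their high r was partly set by the filter. None of the 66 related genes was among the 10. With 7 libraries in 4 groups and 10793 genes compared, such values are a description of these libraries and carry no p.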

How the data were processed

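The deposited files hold 1 FPKM value per gene and library, made by the authors from NovaSeq reads; the submitters' processing notes name TopHat, Cufflinks, HTSeq, DESeq and the build GRCm38, without versions. FPKM were used as deposited. The methods state 3 mice per group and the legends 2 repeats, and what each library pooled is not stated. The members and all gene lists were chosen with earlier results of these data known. FPKM were tested as log2(FPKM + 1) by limma 3.58.1 in R 4.3.3 (trended variance, Benjamini-Hochberg adjustment, threshold 0.05) on genes that reached 1 FPKM in 2 or more libraries of the fit, separately for genotype in pre-pro-B and stage in Lf-/-. Pro-B genotype and WT stage were described over genes that reached 1 FPKM in 2 or more of the 7 libraries, as called where the groups did not overlap and the means were 2-fold apart. Differences on this scale understate the change of low genes. Named partners were, per list, the 4 genes of highest mean log2 value and the 4 of largest pro-B difference. Trac, Zap70, Cd8b1, Ifng, Prf1, Tbx21, Eomes, Elane and the markers named were added after their values were seen. The 10 genes most like the members were ranked by Pearson's r. Depth was read from the spacing of low values of transcripts of at least 1500 bases. The range of depths searched and the criterion were set after the values were seen, since an open range gave about doubled depths for some libraries, and 37.7% to 49.5% of low values lay within 0.1 fragment of a whole number, so fragment numbers are approximate; Lf-/- pre-pro-B replicate 2 gave no reading. Positions are from GENCODE M21 (GRCm38), in which 52403 of 52550 gene IDs matched. On simulated data with 200 genes changed by 2 on the log2 scale, the pre-pro-B fit called 0% of them after adjustment at the real spread and 85% at 0.25 of it, and the Lf-/- stage fit 0% and 90%. A further marker of the pre-pro-B sort is not reported here.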

Additional observations from a re-analysis of the deposited data

Results flagged for a closer look

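For 4 of the 10 genes both Lf-/- libraries were below both WT libraries in pre-pro-B while both were above WT in pro-B, a pattern that 11.3% of 10793 genes showed. The Lf-/- minus WT difference in log2(FPKM + 1) was -0.67 for Ccl5 in pre-pro-B cells and 1.995 in pro-B cells. The same pair of values was -1.16 and 1.96 for Il2rb, -0.79 and 2.27 for Ncr1, and -0.64 and 1.29 for Cd3g. For Il2rb, Ncr1 and Cd3g the pre-pro-B value includes a library in which the gene was listed at 0, and for Ccl5 it does not. The difference between the stages was not tested, because the pro-B values chose the genes. No group had the 4 samples needed to look for a library far from its group.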

How the results depend on the processing

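Between genotypes in pre-pro-B, limma called 0 genes, 65 with the replicate block and 0 to 3338 with a library left out (3338 without Lf-/- replicate 1, which leaves Lf-/- replicate 2 as a lone library assumed to vary like WT, 16 and 24 without WT replicates 1 and 2). The members' median there, -0.09, was -0.25 with median-ratio scaling, -0.32 with quantile normalization, -0.52 with no filter, 0.48 with at least 1 FPKM in every library, and -0.78 (without Lf-/- replicate 2) to 0.40 (without Lf-/- replicate 1) with a library left out. Between stages in Lf-/-, limma called 0 genes and 0 members, 84 genes and 3 members (Ccl5, Il2rb and Ncr1) with the replicate block, and 10 (without pro-B replicate 1) to 3043 genes (without pre-pro-B replicate 1) and 0 to 4 members with a library left out, with 38 genes without pre-pro-B replicate 2 and 16 without pro-B replicate 2. The median of 1.36 was 1.15 with at least 1 FPKM in every library, 2.14 with a pseudocount of 0.1 and 0.95 to 2.33 with a library left out. Differences reversed for Cd3d (-0.61 to 2.91 with a library left out) and Gzma (-0.86 to 3.59) without pre-pro-B replicate 1 and for Nkg7 (-0.23 to 1.13) without pro-B replicate 2. In pro-B, 1462 genes were called, 822 with median-ratio scaling, 833 with quantile normalization, 943 with at least 1 FPKM in every library, 2853 with a pseudocount of 0.1 and 1422 to 2138 with a library left out; the higher and lower calls were 1341 and 121, 432 and 390 with median-ratio scaling and 454 and 379 with quantile normalization. Of the members 7 were called, 3 with at least 1 FPKM in every library (5 members tested) and 8 with either Lf-/- replicate left out, 1 of them (Nkg7) lower without replicate 2. With median-ratio scaling 6 members were called higher and 1 (Nkg7) lower, and with quantile normalization 5 were called, all higher. The median of the members, 1.77, was 1.30 and 1.31 with these scalings, 1.53 with no filter, 2.21 with a pseudocount of 0.1 and 1.60 to 1.86 with a library left out. In WT, 440 genes were called between stages, 271 with at least 1 FPKM in every library, 1135 with a pseudocount of 0.1 and 626 to 717 with a library left out, and of the members 0, 1 (Cd3d) with either scaling and 0 to 1 with a library left out. The causes of these changes were not tested.

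Whether the replicate numbers pair the libraries is not known. Deviations of libraries with the same number correlated at 0.04 between genotypes in pre-pro-B and -0.01 between stages in Lf-/-. With so few libraries per group, and Lf-/- pre-pro-B replicate 2 unlike the rest, these correlations cannot decide it. The pairing by number entered the replicate block alone, which cannot change a difference of balanced groups and changed the calls as given above.

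Depth limited Cd3e, Gzmb and Ncr1, which rested on about 5, 19 and 14 fragments in WT pro-B, and Lf-/- pre-pro-B replicate 2 limited every pre-pro-B value.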
